A study of Mus musculus with 30 samples.

Results

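The suprachiasmatic nucleus (SCN) is the small paired nucleus above the optic chiasm that serves as the master circadian clock in mammals. A set of 10 genes by which its neurons signal and keep their identity was measured: the neuropeptide genes Vip, Prok2, Grp and Nms, the receptor genes Vipr2, Prokr2 and Avpr1a, the G protein regulator Rgs16, and the homeobox factors Six6 and Lhx1. They were listed by name, with earlier results of these data known, and every probe carrying one of these names on the array was taken. Of the 10 genes, 9 had a probe, among 28146 gene names on the array, and Nms had none. The 9 genes were measured by 13 probes, 3 of them (Vipr2, Prok2 and Lhx1) by more than 1, and for those the probe with the highest mean signal in the hypothalamus is given first.

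Transcripts were measured in adult male WT mice and Per3-/- litter mates on a C57Bl/6J background, after 17 cycles of an ultradian schedule with 3.5 h of light and 3.5 h of darkness. Tissue was taken in the light of the final cycle, during its second hour. In the knockout allele a PGK-NEO cassette replaces the region around exon 3, and Per3 transcript is lowered but not lost. Each mouse gave a block of hypothalamus cut around the optic chiasm, which holds the SCN together with much other tissue, and a whole eye, each hybridised with a Cy3 label to its own array without pooling (hypothalamus 8 WT and 8 Per3-/-, eye 7 and 7).

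Neurons of the ventral, light-receiving part of the SCN use VIP and GRP as messengers, and VIP acts through the receptor VPAC2, encoded by Vipr2, to keep the cells of the nucleus in step. Prokineticin 2, encoded by Prok2, carries timing information out of the SCN to target regions that bear its receptor, encoded by Prokr2. The SCN is a minor part of such a block, and most of these genes are also used elsewhere in the brain or in the retina. In tissue of this kind fewer cells of a type and less RNA per cell cannot be told apart.

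Across the series, the signal at the 75th percentile of an array lay between 1408 and 2207 intensity units for hypothalamus and between 1131 and 1644 for eye. Of 41174 probes, 67.9 to 75.6% (hypothalamus) and 71.4 to 80.7% (eye) were well above background. Per3 itself, the check of the labels, was lower in the hypothalamus of Per3-/- mice by 0.51 on the log2 scale (SE 0.09, limma adjusted p = 0.067), with 7 of 8 Per3-/- mice below every WT mouse. In the eye the difference was -0.45 (SE 0.23, limma adjusted p = 1.0), with 4 of 7 Per3-/- mice below every WT mouse. The labelled tissues carried their markers: 16 of 18 measured genes of hypothalamic nuclei were well above background on every hypothalamus array and 8 of 8 photoreceptor genes on every eye array. Detection alone hardly separated the tissues for the hypothalamic list, with 13 of 18 genes well above background on every eye array. For photoreceptor genes it was 2 of 8 on every hypothalamus array. The log2 of the summed signal had a WT median of 7.35 in hypothalamus and 3.70 in eye for the hypothalamic list. For the photoreceptor list it was -2.69 and 9.05. Over all probes, genotype was called at an adjusted p below 0.05 for 17 hypothalamus probes and 8 eye probes.

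A pair of hypothalamic blocks stood apart from the rest. Among 27149 probes well above background on all 16 arrays, 389 differed by more than 1 on the log2 scale from the median of the other blocks in Per3-/- block 7 and 350 in Per3-/- block 1, against 26 to 268 (median 81.5) in the other 14. In block 7, all 9 genes of an olfactory bulb list, which was drawn up after its profile had been seen, were more than 1 above the median of the other 14 blocks (log2). The log2 of the list's summed signal was 6.08 there, 2.19 in block 1 and 1.83 to 2.94 in the other 14. Doc2g, a marker of bulb projection neurons, stood at 3.59 on that array and between -2.94 and -1.74 on the other 14 (log2 signal relative to the array's 75th percentile, the scale used throughout). In block 1, all 8 measured genes of an anterior pituitary list were raised in the same way, with a log2 summed signal of 9.63 against -0.15 to 5.36 in the other 14, the highest in WT block 5, and -0.10 in block 7. Vip, Prok2 and Prokr2 are known to be expressed in the olfactory bulb and Six6 in the pituitary. The main results in the hypothalamus are therefore also given without these blocks, an alternative chosen after the data had been seen. The other 14 blocks differed in content too. The mean log2 signal of a choroid plexus list of 7 genes ran from -3.20 in WT block 8 to 0.76 in Per3-/- block 6. Its part in the results was not tested.

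All 9 measured genes were detected in the block. Each reported probe was well above background on all 16 hypothalamus arrays. Taking differences between genotypes, 0 of 9 genes reached an unadjusted p below 0.05 in limma, against 2.82% of all 41174 probes, and 0 of 9 an adjusted p below 0.05, against 0.0413%. The WT and Per3-/- values overlapped for all 9 genes. The share of all probes with such overlap was not counted, so this says little about these genes in particular. Estimates were higher in Per3-/- mice for 6 genes and lower for 3, with a median difference of 0.07 (log2) beside -0.01 over all probes.

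**Figure D1:**
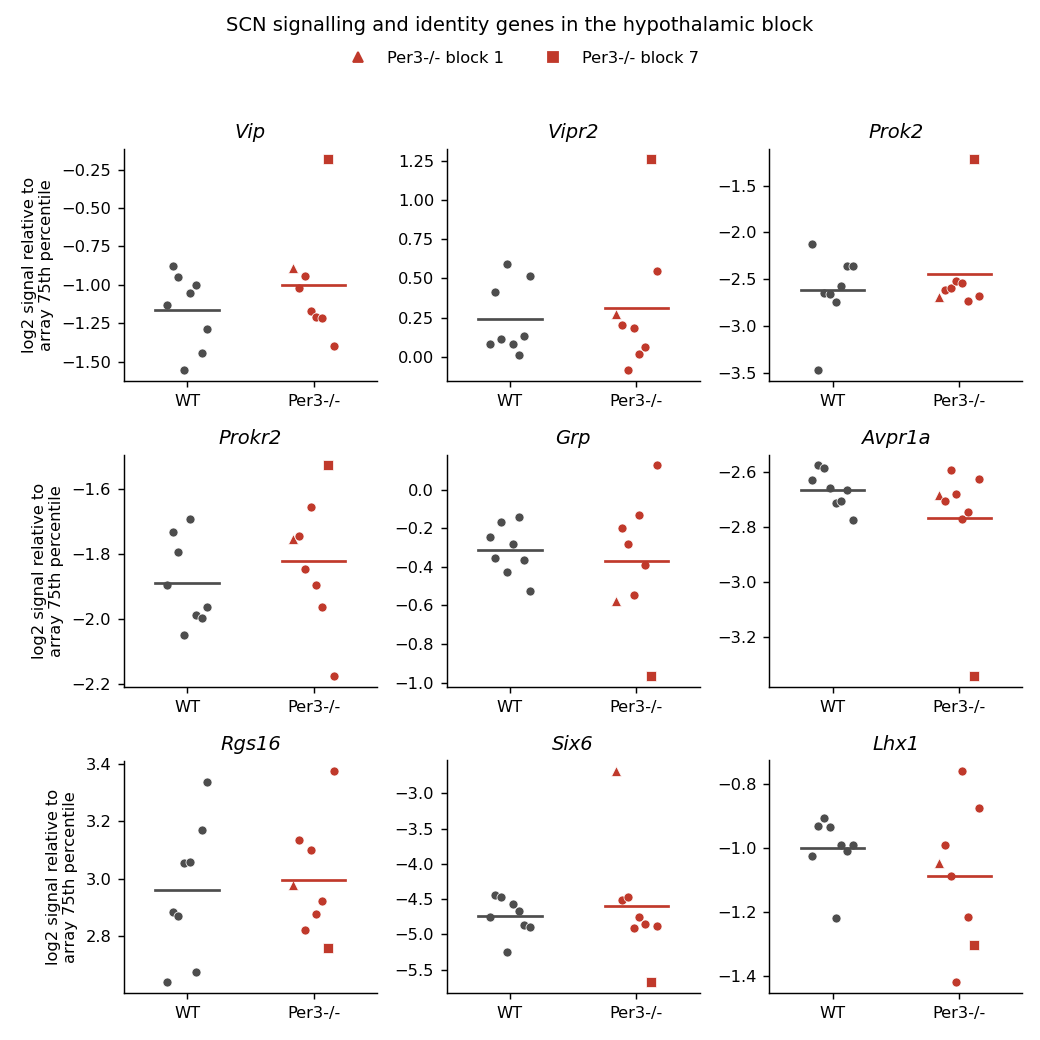
Log2 signal relative to the array's 75th percentile of 9 SCN genes in the hypothalamic block of 8 WT (grey) and 8 Per3-/- mice (red); each point is 1 mouse, lines are group means, and each panel has its own scale. Per3-/- block 7 (square) holds the highest Vip, Vipr2, Prok2 and Prokr2 and the lowest Grp, Avpr1a and Six6 values, and Per3-/- block 1 (triangle) the highest Six6 value, -2.68.

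Vip encodes vasoactive intestinal peptide, the messenger of the ventral SCN, and its probe lies at chr10:4699238-4699297 in assembly mm9. The 8 WT blocks ran from -1.56 to -0.88 with a median of -1.09, and the Per3-/- blocks from -1.40 to -0.18 with a median of -1.10. All Per3-/- blocks but block 7 lay within the WT range, and the medians differed far less than the spread in either group. The mean difference was 0.16 (SE 0.15, 95% interval -0.16 to 0.48, limma unadjusted p = 0.30). It came to 0.04 (SE 0.11) without block 7 and to 0.00 (95% interval -0.24 to 0.24) without blocks 1 and 7.

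The 250 bases before the start of transcription are shown for Vip and Prok2 because both genes are textbook examples of SCN promoters with a named element, a cAMP response element (CRE) for Vip and a clock-bound E-box for Prok2. Both were read from RefSeq sequence on build GRCm38.p6, 5′ to 3′ on the strand of the gene, Vip from chr10:5638968-5639217 (plus strand) and Prok2 from chr6:99726393-99726642 (minus strand). Capitals mark the CRE core TGACG in Vip and the E-box CACGTG in Prok2.
Vip promoter: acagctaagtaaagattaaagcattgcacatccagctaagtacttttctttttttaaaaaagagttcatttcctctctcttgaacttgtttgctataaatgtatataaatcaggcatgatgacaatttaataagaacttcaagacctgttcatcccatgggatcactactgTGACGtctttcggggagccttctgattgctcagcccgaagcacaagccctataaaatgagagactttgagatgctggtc
Prok2 promoter: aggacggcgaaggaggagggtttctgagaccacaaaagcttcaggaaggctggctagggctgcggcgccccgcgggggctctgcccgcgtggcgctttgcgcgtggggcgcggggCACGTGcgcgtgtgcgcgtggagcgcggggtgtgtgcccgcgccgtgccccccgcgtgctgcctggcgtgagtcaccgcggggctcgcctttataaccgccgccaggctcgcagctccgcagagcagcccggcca
The CRE core in Vip sits 79 to 75 bases before the start and the E-box in Prok2 135 to 130 bases before it. Promoters were given for 9 of the 10 genes, and 2 further genes, Avpr1a and Lhx1, held the CRE core, starting 165 and 50 bases before their starts. Searched on both strands of 32851 promoters of the same length, the core TGACG occurred in 17.8%, the E-box in 6.02% and the full CRE TGACGTCA, which contains the core, in 1.55%. The full CRE occurred in 0 of the 9 promoters, which says only that these letters are not in these windows. Neither gene was called between genotypes (below), and the motifs are given as a description of the sequence.

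Prok2 was measured by a pair of probes on chromosome 6 (the reported one at chr6:99661495-99661554, mm9) that moved together across the 16 blocks (r = 0.98, and 0.94 without block 7). Its WT values had the widest range of the 3 measured peptide genes, from -3.48 in block 2 through a median of -2.61 to -2.13 in block 1. Of the Per3-/- blocks 7 lay between -2.73 and -2.52, well inside that range, and block 7 stood at -1.22. The groups differed by 0.17 (SE 0.22, 95% interval -0.29 to 0.63, limma unadjusted p = 0.45), and by -0.01 without block 7. The other probe gave 0.25 (SE 0.21).

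Grp encodes gastrin-releasing peptide, which marks retinorecipient cells of the SCN. WT blocks ranged from -0.52 to -0.14 (median -0.32) and Per3-/- blocks from -0.97 to 0.13 (median -0.34), so that the Per3-/- range enclosed the WT range. The lowest value belonged to block 7 and the highest to block 8 of the Per3-/- mice. The difference was -0.06 (SE 0.12, 95% interval -0.32 to 0.20, limma unadjusted p = 0.64), and changed sign to 0.08 without blocks 1 and 7.

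Of the receptors, Vipr2 had the brightest of its 3 probes at chr12:117384455-117384514 (mm9), with WT values of 0.01 to 0.59 (median 0.12) and Per3-/- values of -0.09 to 1.26 (median 0.19). Again block 7 alone carried the upper end, 1.13 above the median of the other blocks. The difference of 0.07 (SE 0.16, 95% interval -0.28 to 0.42, limma unadjusted p = 0.69) became -0.09 (SE 0.12) without blocks 1 and 7. The 3 probes followed each other only loosely (r = 0.59 and 0.62 with the reported probe, 0.18 and 0.29 without block 7), and the third was well above background on 0 WT arrays, so values for Vipr2 depend on the probe.

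Prokr2, the prokineticin 2 receptor, was less variable. Its probe at chr2:132197070-132197129 (mm9) gave -2.05 to -1.69 (median -1.93) in WT and -2.18 to -1.53 (median -1.80) in Per3-/- blocks, with overlapping groups. They differed by 0.07 (SE 0.08, 95% interval -0.11 to 0.25, limma unadjusted p = 0.43), and by 0.01 without blocks 1 and 7. Avpr1a, the V1a vasopressin receptor through which SCN vasopressin neurons signal, had the narrowest WT range, -2.77 to -2.57 (median -2.66; probe chr10:121890135-121890194, mm9). Its Per3-/- values ran from -3.34 in block 7 to -2.59 (median -2.69), and the other 7 lay within the WT range. The difference of -0.10 (SE 0.09, 95% interval -0.29 to 0.08, limma unadjusted p = 0.25) shrank to -0.02 (SE 0.04) without both blocks, the tightest bound in the set, with a 95% interval of -0.12 to 0.07.

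Rgs16 speeds the switching-off of Gi signalling and times cAMP in the dorsal SCN. WT values were 2.64 to 3.34 (median 2.97) and Per3-/- values 2.76 to 3.37 (median 2.95; probe chr1:155592244-155592303, mm9). The groups lay almost on top of each other, and blocks 1 and 7 lay within the WT range. The difference was 0.03 (SE 0.11, 95% interval -0.19 to 0.26, limma unadjusted p = 0.75), and 0.08 (SE 0.12) without blocks 1 and 7.

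Six6, a factor needed for the eye field and for formation of the SCN, gave -5.24 to -4.44 (median -4.71) in WT blocks, and -5.68 in block 7 to -2.68 in block 1 (median -4.80) in Per3-/- blocks (probe chr12:74045489-74045548, mm9). The other 6 Per3-/- blocks lay within the WT range. The difference of 0.15 had the widest interval of the 9 genes (SE 0.30, 95% interval -0.49 to 0.78, limma unadjusted p = 0.63), and without blocks 1 and 7 it was 0.01 (SE 0.12). Lhx1, the LIM factor that maintains peptide expression and coupling in the SCN, gave -1.22 to -0.91 (median -0.99) in WT and -1.42 to -0.76 (median -1.07) in Per3-/- blocks (probe chr11:84333091-84333150, mm9). Its groups overlapped and differed by -0.09 (SE 0.08, 95% interval -0.26 to 0.09, limma unadjusted p = 0.32), and by -0.06 (SE 0.09) without blocks 1 and 7. A second Lhx1 probe, which followed the first across blocks (r = 0.83), gave -0.07 (SE 0.11).

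Over the 9 genes the standard errors ran from 0.08 to 0.30 with all blocks and from 0.04 to 0.16 without blocks 1 and 7. Those of Rgs16 (0.11 to 0.12) and Lhx1 (0.08 to 0.09) were slightly larger without them. All 9 estimates then lay between -0.09 and 0.08, with a lowest unadjusted limma p of 0.43. Limma's adjusted p was 0.99 for all 9 genes on the full set. Each slide held arrays of both genotypes, and within slides only Prok2 was higher in Per3-/- mice on all 4 slides, by 0.02 to 0.41, and only Avpr1a lower on all 4, by values from -0.26 to -0.01. Neither pattern remained without blocks 1 and 7, where 1 slide turned for each gene (Prok2 -0.33, Avpr1a 0.10).

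**Figure D2:**
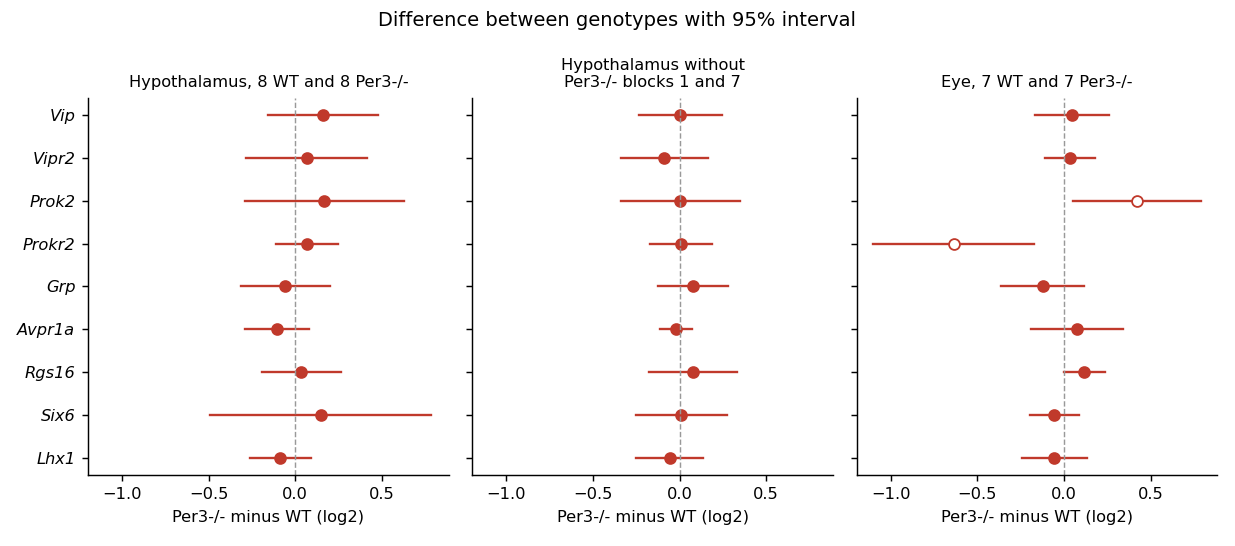
Difference in log2 signal between Per3-/- and WT mice for 9 SCN genes, with 95% intervals from limma, in all hypothalamic blocks, without Per3-/- blocks 1 and 7, and in the eye; open circles mark genes not well above background on every eye array. In both hypothalamus panels every interval spans 0, and in the eye those of Prok2 and Prokr2 do not.

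Genes working alongside these 9 were taken as lists. The counts below stand beside 2.82% of all probes at an unadjusted p below 0.05 in the hypothalamus and 1.8% in the eye. Of 26 other genes enriched in the SCN, 0 were higher and 2 lower in the hypothalamus of Per3-/- mice at an unadjusted p below 0.05: Drd1a, a dopamine receptor gene, by -0.36 (SE 0.14, limma unadjusted p = 0.023), and Tac1, the substance P precursor, by -0.26 (SE 0.11, limma unadjusted p = 0.028). The list's median difference was -0.04. Among 34 genes of G protein, cAMP and calcium signalling, 0 were higher and 1 lower, the phosphodiesterase gene Pde10a (-0.17, SE 0.07). Among 18 RGS genes 1 was lower, Rgs4 (-0.22, SE 0.09), which like Rgs16 acts on Gi and Gq. Among 18 paralogous ligands and receptors 1 was lower, Prokr1 (-0.37, SE 0.17), which was well above background on only 3 of 16 arrays, and among 16 other homeobox factors (relatives of Six6 and Lhx1) 0 passed. In the eye 1 of the 26 SCN genes was lower (Id4, -0.20) and 1 of the 16 homeobox factors higher (Lhx5, 0.51, well above background on 0 eye arrays). Without blocks 1 and 7, where 2.05% of all probes passed, the genes that passed differed in part. Of the SCN genes 3 were lower (Drd1a -0.38, Avp -0.22 and Penk -0.24), of the signalling genes 2 (Adcy5 -0.13 and Pde10a -0.16), of the RGS genes Rgs9 (-0.24) but not Rgs4 (-0.16, limma unadjusted p = 0.10), and Tac1 (-0.17, limma unadjusted p = 0.064) and Prokr1 (-0.33, limma unadjusted p = 0.12) did not pass. Avp, listed also among the paralogous ligands, was the 1 gene that passed there, and 0 homeobox factors did. In all 5 lists and both tissues, with or without these blocks, 0 genes reached an adjusted p below 0.05, so neither the measured genes nor their pathway partners were called changed. Pde10a, Drd1a, Tac1 and Rgs4 are also abundant in the striatum, and the mean log2 signal of a striatum and septum list of 10 genes averaged 0.82 over the WT blocks (SD 0.15) and 0.67 over the Per3-/- blocks (SD 0.08); Drd1a, Tac1, Penk and Rgs9 belong to that list too. Its part in these differences was not tested.

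The share of the SCN in a block can differ from cut to cut, and the spread and covariation of the 9 genes across blocks were examined as a measure of it. The 9 genes varied more than most. Their SD about the genotype means had a median of 0.24 against 0.13 over 27149 detected probes, and their percentiles among those probes ran from 66.9 (Prokr2) to 99.0 (Six6) with a median of 85.6. Without block 7 the percentile of Avpr1a dropped to 8.15, and without both blocks the median over the 9 genes was 82.7.

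They did not, however, move as a group. Over the 36 pairs of genes, 18 correlations were positive and 18 negative, with a median r of -0.02. Block 7 shaped much of this pattern, since 14 pairs exceeded 0.5 in size with it and 5 without it, and only 23 of 36 kept their sign. With blocks 1 and 7 both left out, 17 of 36 were positive, and the highest values were Vip with Six6 (0.92), Vipr2 with Rgs16 (0.72), Vip with Prokr2 (0.69) and Grp with Lhx1 (0.63). These are descriptions over 14 to 16 blocks that share dissection and array processing.

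**Figure D3:**
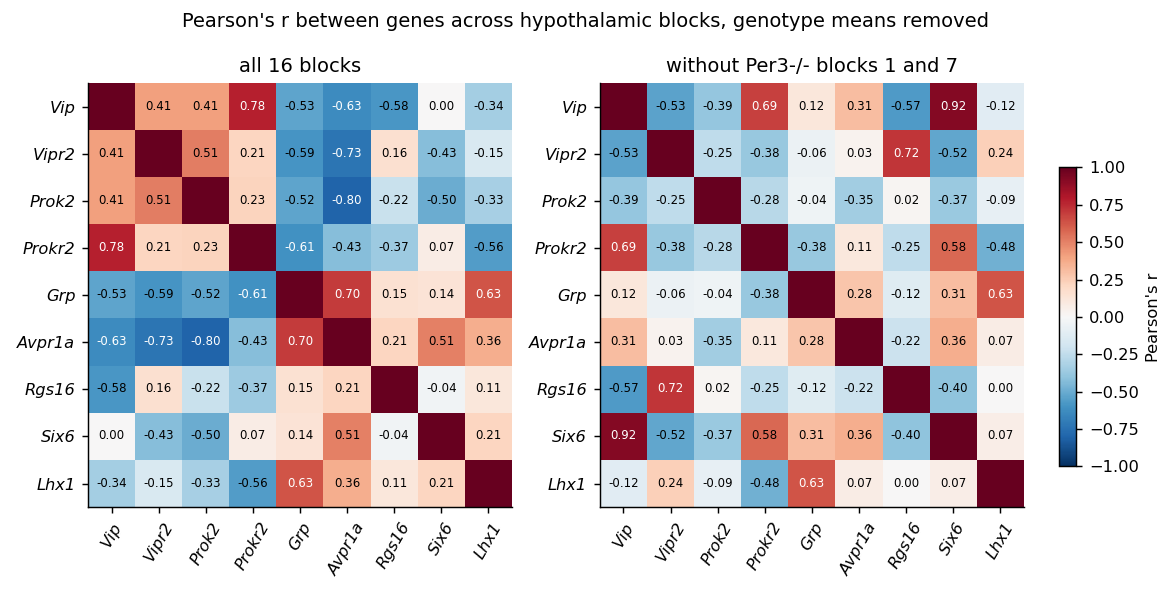
Pearson's r between each pair of the 9 genes across hypothalamic blocks after removal of genotype means, for all 16 blocks and without Per3-/- blocks 1 and 7 (colour from -1, blue, to 1, red). Vip and Six6 change from 0.00 to 0.92, Vip and Prokr2 stay at 0.78 and 0.69, and the signs of the Vip pairs with Vipr2, Prok2, Grp and Avpr1a turn.

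Vip, as the defining peptide of the ventral SCN, was set against each of the other 8 genes. Prokr2 followed it most closely over all 16 blocks, with r = 0.78 (permutation p = 0.0015) and Spearman's rho = 0.74 (permutation p = 0.0019). The relation held without block 7 (r = 0.70), without the 2 blocks farthest from the median Vip value, Per3-/- block 7 and WT block 4 (r = 0.67), with slide means removed (r = 0.80), without blocks 1 and 7 (r = 0.69), and in WT blocks alone (r = 0.76, exact permutation p = 0.034). With slide means removed and blocks 1 and 7 left out together, it was weaker (r = 0.52, permutation p = 0.081). Rgs16 ran the other way, with r = -0.58 (permutation p = 0.019) and rho = -0.59 (permutation p = 0.022), and r = -0.59 without the 2 farthest blocks. With slide means removed r was -0.70 over all blocks, but -0.23 once blocks 1 and 7 were also left out.

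Six6 showed no relation to Vip over all blocks by Pearson's r (0.00, permutation p = 0.99) but one by rank (rho = 0.54, permutation p = 0.031). The difference lay in the blocks that stood apart: block 1 had a Six6 signal 2.07 above the median of the others, and block 7 one 0.93 below it. Without both, r was 0.92 (permutation p = 3e-05) and rho 0.90 (permutation p = 0.0001), and with slide means removed as well r was 0.93. In the 8 WT blocks, none of which was left out, r was 0.94 (exact permutation p = 0.00027). On a log2 scale Six6 rose by 1.02 (SE 0.14) for each unit of Vip in the 14 blocks, so both genes varied over a similar range.

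The remaining 5 relations did not hold. For Vipr2 (r = 0.41), Prok2 (r = 0.41), Grp (r = -0.53) and Avpr1a (r = -0.63), permutation p was 0.17, 0.14, 0.086 and 0.11, rho lay between -0.18 and 0.11, and without the 2 farthest blocks r was -0.27, -0.49, -0.17 and 0.37. Without block 7 alone r was -0.45, -0.39, -0.04 and 0.30, so that these values rested on that block. The mean of the olfactory bulb list, high in block 7, had r = 0.70 with Vip over all blocks and -0.25 without blocks 1 and 7, and its part in these relations was not tested further. Lhx1 gave r = -0.34 (permutation p = 0.30).

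Fitted over all probes with genotype as a further term, the Vip signal was called at an unadjusted p below 0.05 for 4 of the 8 genes, Prokr2 upward and Grp, Avpr1a and Rgs16 downward, against 7.64% of 41173 probes. After adjustment 0 of the 8 genes were called, against 0% of probes, and the smallest adjusted p in limma was 0.13 (Prokr2). Without blocks 1 and 7, 3 of the 8 genes had an unadjusted p below 0.05, Prokr2 and Six6 upward and Rgs16 downward, against 10.1% of probes. Grp and Avpr1a no longer passed (limma unadjusted p = 0.69 and 0.37). The smallest adjusted p in limma was then 0.14, for Six6. The association of Prokr2 and of Six6 with Vip therefore did not pass correction over the whole array.

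**Figure D4:**
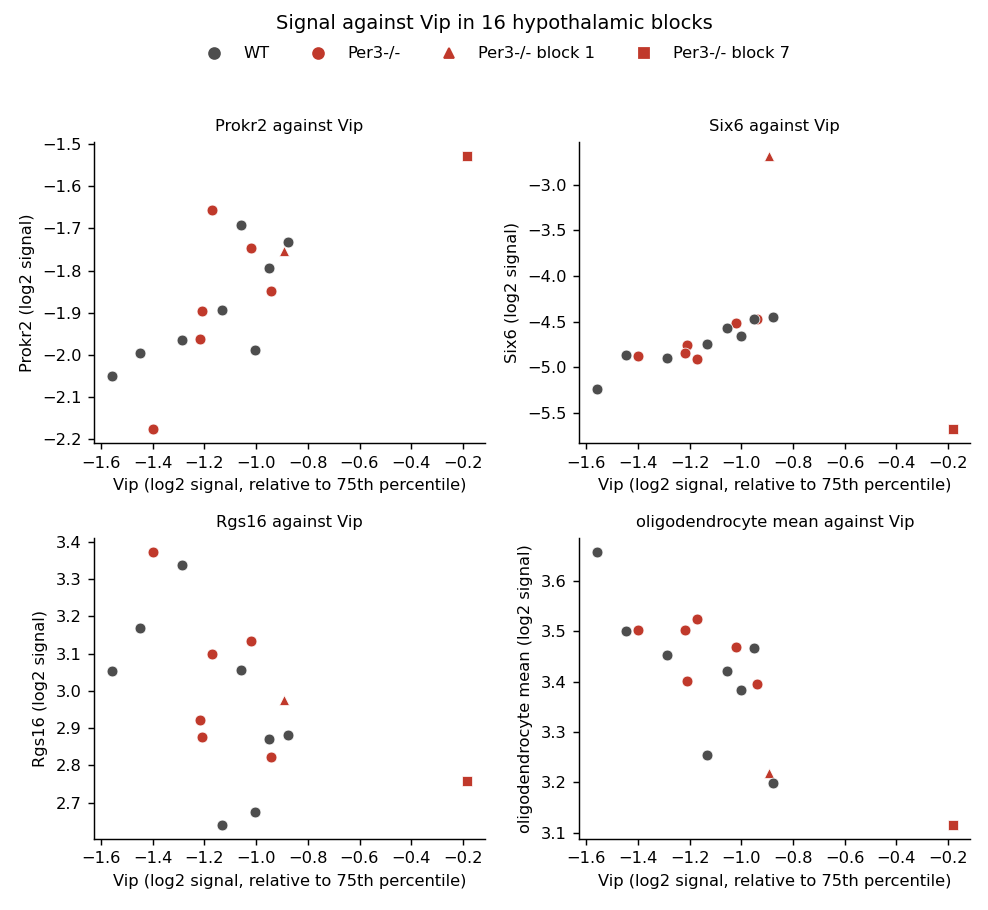
Log2 signal of Prokr2, Six6, Rgs16 and the mean of 10 oligodendrocyte genes against that of Vip in 16 hypothalamic blocks (grey WT, red Per3-/-; each point is 1 mouse). Per3-/- block 7 (square) lies apart at a Vip signal of -0.18, and Six6 follows Vip in the other blocks except Per3-/- block 1 (triangle).

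Other SCN genes did not follow Vip as a set. Of the 26 listed genes 7 had a positive r with Vip (median r -0.11, beside -0.06 over all probes), and without blocks 1 and 7 it was 13 of 26 (median -0.02, beside 0.00). Of all probes, 42.4% had a positive r over all blocks and 50.1% without blocks 1 and 7. In the limma fit 6 of the 26 had an unadjusted p below 0.05 for the Vip term, against 7.64% of all probes. After adjustment 0 passed. Calb2, the calretinin gene, was among the 6, with r = 0.60 with all blocks (limma unadjusted p = 0.020) and without blocks 1 and 7. So were Zfhx3 (-0.59), Rorb (-0.57), Sst (-0.54) and Rasd1 (-0.54), which stood at -0.22, 0.05, -0.48 and -0.24 without blocks 1 and 7. Avp, the vasopressin precursor of the dorsal SCN and of magnocellular neurons, had r = -0.05 with all blocks and -0.38 without blocks 1 and 7.

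Genes of the white matter moved opposite to Vip. All 10 genes of an oligodendrocyte list, the myelin genes of the optic chiasm and other tracts, had a negative r with Vip (median -0.73, and -0.64 without blocks 1 and 7), among them Mag (-0.81) and Mbp (-0.78). Over all probes 42.4% had a positive r. The mean of the list had r = -0.82 with Vip (permutation p = 0.0001, adjusted p = 0.016 over 162 relations between 18 lists and 9 genes) and rho = -0.83 (permutation p = 0.00015). The relation held without the 2 farthest blocks (r = -0.62), with slide means removed (r = -0.87) and without blocks 1 and 7 (r = -0.70). Prokr2 also ran against this list (r = -0.57, permutation p = 0.029, adjusted p = 0.28), at -0.36 without blocks 1 and 7. For Six6 r was -0.24 over all blocks and -0.69 without blocks 1 and 7. Rgs16 covaried with the mean of 6 thalamic genes, with r = 0.76 (permutation p = 0.00046, adjusted p = 0.025), rho = 0.78 (permutation p = 0.00074) and r = 0.79 without blocks 1 and 7. Of these 6, Rora is also among the listed SCN genes. Rgs16 also had r = 0.69 with a retinal ganglion cell list, 0.56 with the oligodendrocyte list and -0.61 with a pigment epithelium list. These relations did not pass adjustment (permutation, adjusted p = 0.12, 0.28 and 0.26), and 3 of 6 pigment epithelium genes were well above background on every hypothalamus array. An unadjusted permutation p below 0.05 was reached by 25 of the 162 relations. Closest to passing was Grp with the olfactory bulb list (r = -0.76, adjusted p = 0.081), at -0.69 without blocks 1 and 7. Lhx1 with an amacrine and horizontal cell list (r = 0.73) and Prok2 with the olfactory bulb list (r = 0.80) both had an adjusted p of 0.12. Without blocks 1 and 7 they had 0.80 and 0.36. The only other relation of the 162 past adjustment was Six6 with genes of other hypothalamic nuclei (r = 0.89, rho = 0.68, permutation p = 0.00038 and 0.0046, adjusted p = 0.025), which fell to r = 0.57 without its 2 farthest blocks, Per3-/- blocks 1 and 7. That list includes Pomc, also a gene of pituitary cells, which stood at 8.66 in block 1 and at 2.36 to 3.34 in the other 14 blocks, and the anterior pituitary list itself had r = 0.84 with Six6 (rho = 0.52, permutation p = 0.025 and 0.057, adjusted p = 0.28), and 0.19 without both blocks. With the choroid plexus list, Lhx1 had r = -0.54 (permutation p = 0.041, adjusted p = 0.29), and -0.68 without blocks 1 and 7. Whether tissue content accounts for the covariation of the genes was not tested.

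Outside the lists, the 10 detected probes most like Vip over the 16 blocks, of 27138 compared, were those of Sertad4, Ralgps2, Ptpro, Cckbr, Tcp11l2, Ube2t, Sox4, Zcchc14, Hs3st3a1 and Btg1 (r from 0.86 to 0.89). In the limma fit 0 of all probes were called for the Vip term after adjustment, so these 10 were not either. For the other genes below, likeness was not tested. The probes were picked as the highest over blocks that include 1 and 7, so some drop without those blocks follows from the choice alone. Without block 7 the r of the 10 with Vip was 0.66 to 0.86, highest for Tcp11l2, and without blocks 1 and 7 it was 0.61 to 0.84. Closest to Rgs16 were Mrvi1, Fzd10 and Tspan14 (r = 0.93, 0.92 and 0.92, and 0.92, 0.97 and 0.93 without blocks 1 and 7). Grp was most like Sncg, the gamma-synuclein gene, at 0.94, followed by Ppm1a at 0.93 and Brdt at 0.90, and without blocks 1 and 7 these were 0.87, 0.86 and 0.85. Lhx1 was closest to Ebf3, Tacr3 and 1500016L03Rik (0.88, 0.88 and 0.87), and Prokr2 to Grm8, R3hdm1 and Pcdhb10 (0.89, 0.88 and 0.86). Without both blocks these were 0.88, 0.91 and 0.89 for Lhx1 and 0.84, 0.85 and 0.93 for Prokr2. As for Vip and Grp, the likeness was lower without both blocks for the probes closest to Six6, Avpr1a, Vipr2 and Prok2. Six6 had r = 0.97 with 4931429I11Rik, 0.95 with Racgap1 and 0.95 with Cldn23 over all blocks and 0.79, 0.75 and 0.59 without both. Avpr1a had 0.91 with 1700001L19Rik, 0.90 with Tppp3 and 0.90 with Chst5, and 0.60, 0.58 and 0.57 without both. Vipr2 was most like Rhobtb2 (0.90), Meis1 (0.90) and Prdx2 (0.88), with 0.72, 0.72 and 0.70 without both. Prok2 was most like Vamp2 (0.91), Clca1 (0.89) and Odz3 (0.89), with 0.79, 0.80 and 0.80 without both.

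The eye served as a second tissue with its own use of some of these genes: VIP is made by a class of retinal amacrine cells, and Six6 and Lhx1 act in retinal progenitors and horizontal cells. Set against the hypothalamus in WT mice, 6 of the 9 genes were lower in the eye at an adjusted p below 0.05, where 33.6% of all probes were, 1 was higher, where 42.1% were, and 2 were called neither way. Both shares of all probes are large, so the counts say little in themselves, while the sizes differ widely. Each slide held arrays of 1 tissue, so that tissue and slide cannot be told apart.

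Prok2 and its receptor were hardly detected in the eye. The reported Prok2 probe was well above background on 0 of 14 eye arrays and the other on 2. The WT signal of the reported probe was at least 13.4-fold higher in the hypothalamus than the eye arrays could register, a bound that was not itself tested. Its measured means differed by -5.76 (log2, limma adjusted p = 4.67e-21), a value that leans on eye signals not well above background. Prokr2 was well above background in only 2 of 7 WT eyes and 0 of 7 Per3-/- eyes. Its measured WT means stood 18.2-fold apart, higher in the hypothalamus (adjusted p = 2.43e-20), a value that leans on the 5 WT eyes without a signal well above background. Grp was 5.22-fold, Rgs16 5.13-fold, Avpr1a 3.25-fold and Lhx1 1.77-fold higher in the hypothalamus, with values from the tissues that did not overlap. How many of all probes were separated in this way was not counted. For Lhx1 the other probe gave a larger log2 difference, -2.38 against -0.82.

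Six6 alone was higher in the eye, by 3.55 on the log2 scale or 11.7-fold (SE 0.23, adjusted p = 1.57e-14), with eye values of -1.32 to -1.02 in WT mice. Vip differed by 0.23 (95% interval -0.04 to 0.50, limma adjusted p = 0.11), with values of -1.17 to -0.69 in the WT eyes that overlapped those of the hypothalamus. Vip was called higher in the eye (adjusted p = 0.041) when Per3-/- block 7, which enters this fit through the shared variance, was left out. Vipr2 differed by 0.15 (95% interval -0.11 to 0.42, adjusted p = 0.29) at its brightest probe, whereas another probe of the gene was 2.47 higher in the eye and had been well above background on only 10 of 16 hypothalamus arrays.

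**Figure D5:**
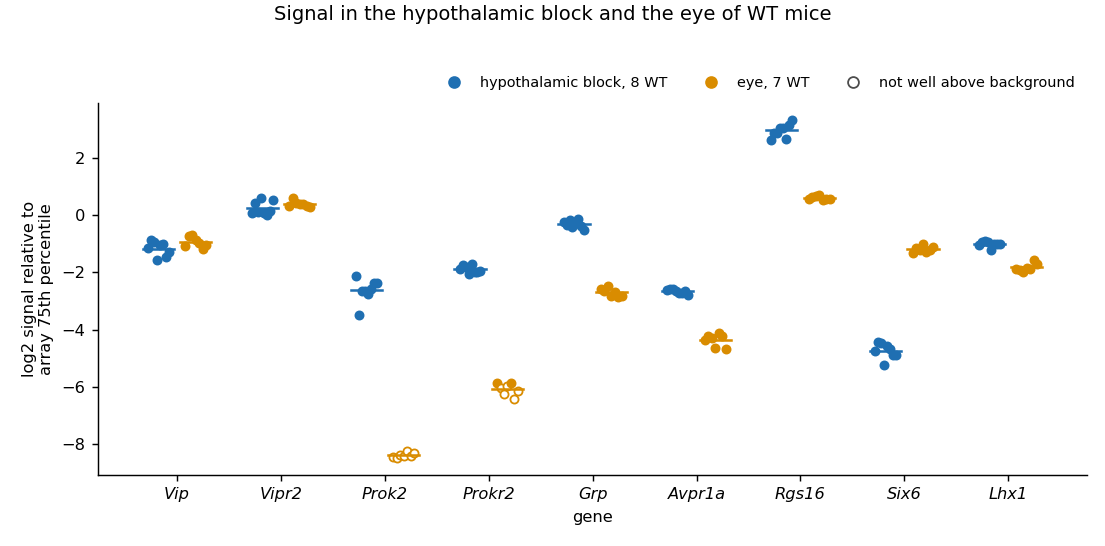
Log2 signal relative to the array's 75th percentile in the hypothalamic block (blue, 8 mice) and the eye (orange, 7 mice) of WT mice for 9 SCN genes; points are mice, lines are means and open points were not well above background. Levels are to be compared between tissues within a gene: Six6 is higher in the eye, Vip and Vipr2 overlap, and the other 6 are lower, Prok2 and 5 of 7 Prokr2 values being below detection.

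Between genotypes in the eye, 2 of 9 genes had an unadjusted p below 0.05, against 1.8% of all probes, and 0 an adjusted p below 0.05, against 0.0194%. Both had signals at or near background. Prok2 differed by 0.42 (95% interval 0.05 to 0.79, limma unadjusted p = 0.028), from a WT mean of -8.37, with 0 arrays well above background at this probe. Its other probe, well above background in 2 WT eyes, differed in the opposite direction (-0.62). Prokr2 differed by -0.64 (SE 0.22, 95% interval -1.10 to -0.17, limma unadjusted p = 0.011), where 2 WT eyes and 0 Per3-/- eyes were well above background.

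Of the 7 genes detected on every eye array, Rgs16 came closest to the threshold. It ran from 0.52 to 0.70 in WT eyes (median 0.58) and from 0.61 to 0.87 in Per3-/- eyes (median 0.70), with 4 of 7 Per3-/- eyes above every WT eye. The difference was 0.12 (SE 0.05, 95% interval -0.002 to 0.23, limma unadjusted p = 0.053, adjusted p = 1.0). It moved past that unadjusted threshold in limma with quantile normalisation, with dim probes left out, and when any of WT mouse 4, WT mouse 5, Per3-/- mouse 2 or Per3-/- mouse 5 was left out, and also by the methods' unmoderated test, while its adjusted p stayed at 1.0 in each of these. On each of the 4 slides Rgs16 was higher in Per3-/- eyes, by 0.05 to 0.17. Grp was lower on all 4 slides (-0.12 over all arrays, SE 0.11, 95% interval -0.36 to 0.11). For Vip, Vipr2, Avpr1a, Six6 and Lhx1 the eye differences lay between -0.06 and 0.07, with overlapping groups, and their 95% intervals reached no further than -0.24 and 0.34.

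The genotype effect itself was compared between the tissues. It differed at an unadjusted p below 0.05 for 1 of 9 genes, Prokr2 (-0.71, SE 0.22, limma unadjusted p = 0.0034), against 2.21% of all probes, and its adjusted p was 1.0. This too depends on eye signals near background. For the other 8 genes the difference between the tissues' genotype effects lay between -0.19 and 0.26 on the log2 scale.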

How the data were processed

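RNA of each hypothalamic block and eye was labelled with Cy3 and hybridised to a 1-colour Agilent array of 60-base probes. Spot intensity was read out by the authors in Feature Extraction (Agilent). What they deposited is a linear processed intensity from which background had been subtracted, with no scaling across arrays. A table of log2 values per probe was deposited as well. Over 99.9% of these lay within 0.05 of the values computed here with spots marked as uneven or outlying kept, less each probe's median in the tissue. The deposited log2 values served as an alternative only.

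For 41174 non-control probes, log2 of the processed intensity was expressed relative to its 75th percentile on that array, without spots marked as uneven or outlying. Within a tissue, limma 3.58.1 (R 4.3.3) gave the genotype comparison, and Benjamini-Hochberg adjustment ran over every probe. Tissues and the tissue by genotype interaction were fitted over all 30 arrays, with the mouse (genotype and number in the labels) as a random block (correlation 0.059). Where the eye gave no signal well above background, a bound was used, the mean over arrays of the higher of its own signal and the lowest signal among probes well above background. Covariation with Vip was computed after subtraction of genotype means, with 100000 permutations within genotype (exact within 1 genotype), and by limma with Vip as a term. All tests were two-sided. Python 3.11.15, numpy 2.4.6, pandas 2.3.3 and scipy 1.17.1 were used, and the limma fit was tested on simulated data. The number of arrays limits the precision, and each replicate number was taken as a separate mouse.

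The genes and lists were chosen with earlier results of these data known. All probes named for the 10 genes were taken, the brightest of a gene in the hypothalamus was reported, and of other genes those most like each (10 for Vip, 3 for the others) and up to 3 of lowest p per list were named, with Per3. Calb2, Zfhx3, Rorb, Sst, Rasd1, Avp, Penk, Adcy5, Pomc and the myelin genes were named beyond that rule after their values were seen. Positions are those of the hypothalamus array files (assembly mm9). Where in the gene a probe lies was not analysed here. Eye arrays of WT mouse 2 and Per3-/- mouse 1 were not analysed here.

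Alternatives were quantile normalisation, normexp correction (offset 50), retention of marked spots, the deposited log2 values, filters on dim probes, slide and replicate number as blocks, the mean of a gene's probes, Vip as a covariate and leaving out each array.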

Additional observations from a re-analysis of the deposited data

Results flagged for a closer look

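In groups of 7 or 8 arrays, the highest or lowest value was set apart from the rest by a gap that exceeded Dixon's 95% critical value for 9 of the 36 combinations of gene, tissue and genotype, where chance gives about 1 in 20. Of these, 4 came from the hypothalamic block of Per3-/- mouse 7: Vip at -0.18 against -1.40 to -0.89 in the other 7, Vipr2 at 1.26 against -0.09 to 0.55, Prok2 at -1.22 against -2.73 to -2.52, and Avpr1a at -3.34 against -2.77 to -2.59. That block also carried the raised olfactory bulb genes described above. Six6 stood at -2.68 in the block of Per3-/- mouse 1, which carried the raised pituitary genes, against -5.68 to -4.47 in the others. Among WT blocks, Prok2 was low in mouse 2 (-3.48 against -2.75 to -2.13) and Lhx1 low in mouse 5 (-1.22 against -1.02 to -0.91). In Per3-/- eyes, Prokr2 was low in mouse 2 (-7.92 against -6.87 to -6.35), on arrays of which 0 had this probe well above background, and Six6 was high in mouse 5 (-1.02 against -1.34 to -1.24). The part of the other tissues' markers in these values was not tested.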

How the results depend on the processing

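Across 1490 comparisons of 52 results with their alternatives, 1387 kept direction and side of the threshold (or stayed within the spread), 58 turned direction, 10 fell short of the threshold, 18 newly passed it and 17 counts or medians moved. The count of 0 of 9 members called between genotypes in the hypothalamus was the same under every alternative run. With normexp correction, for which the eye files held median rather than mean spot signals, 10 probes were called in the hypothalamus and 4 in the eye, 0 members passed in the eye and 0 in the interaction, and estimates changed sign for Six6 in the hypothalamus (-0.0045), for Prokr2 (0.24), Grp (0.075) and Lhx1 (0.035) in the eye, and for the interaction of Prokr2 (0.21) and Grp (0.14). Replicate numbers were not used to pair mice. Deviations of same-numbered samples correlated between -0.20 and 0.40 in the hypothalamus. In the eye 5 of 6 pairs correlated at 0.32 to 0.68 and 1 at 0.0015. Same-numbered arrays also shared a slide, so pairing and slide cannot be told apart in these values, and the labels give no pairing. With the number as a block, 5 and 1 probes were called, 1 member passed in the eye, and r of Six6 with Vip was -0.18. The eye count of members was also 1 with quantile normalisation, with only probes well above background in a genotype, and with the mean of a gene's probes, which turned Vipr2 (-0.058) and Prok2 (-0.097) there. Vip as a covariate turned Vipr2 (-0.0056) and Grp (0.010) in the hypothalamus, and omission of Per3-/- blocks 1 and 7 gave -0.088 and 0.076 there.

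Correlations with Vip turned for Six6 with quantile normalisation (-0.034), slide means removed (-0.12) and Per3-/- blocks alone (-0.19), and for Vipr2 by rank (-0.0029). In WT blocks alone r was -0.46 for Vipr2, -0.48 for Prok2, 0.62 for Grp and 0.38 for Avpr1a, and without Per3-/- blocks 1 and 7 it was -0.53, -0.39, 0.12 and 0.31. The median percentile of spread was 91.4 with normexp correction, 90.8 with slide means removed and 82.7 without those blocks. Leaving out 1 array at a time, hypothalamus differences ran from -0.071 to 0.12 for Vipr2, -0.0075 to 0.24 for Prok2, -0.13 to 0.028 for Grp, -0.019 to 0.089 for Rgs16 and -0.13 to 0.30 for Six6, the member count in the eye from 1 to 3, and the spread from 79.9 to 87.2. The interaction ran from -0.17 to 0.0045 for Vip, -0.091 to 0.10 for Vipr2, -0.15 to 0.0014 for Grp, -0.34 to 0.068 for Six6 and -0.018 to 0.078 for Lhx1, and r with Vip from -0.45 to 0.57 for Vipr2, -0.39 to 0.68 for Prok2, -0.70 to 0.30 for Avpr1a and -0.17 to 0.64 for Six6. The cause of these changes was not tested, and signals near background limit Prok2 and Prokr2 in the eye.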
